A study of Mus musculus with 8 samples.

Results

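Cd93, Vpreb3, Cd24a and Sox4 are 4 genes that mark immature B cells, and all of them were found by symbol among the 23997 genes of the deposited table. B cells leave the bone marrow immature and pass through transitional stages in the spleen before they join either the follicular or the marginal zone compartment. Over this course the surface protein CD93 is lost, the machinery that built and tested the first immunoglobulin chains is shut down, and CD24 falls from a high level, more so on follicular cells than on marginal zone B cells. The 8 libraries came from C57BL/6 mice and hold marginal zone B cells (MZBs), 4 from ACKR3+ and 4 from ACKR3- cells, a difference that the labels give as a genotype. ACKR3 is an atypical receptor for the chemokine CXCL12. The titles name the groups as GFP positive and GFP negative. The labels give no age, no treatment, and no account of what drives GFP or how the cells were isolated. The design asks how the transcripts of MZBs with ACKR3 differ from those without it.

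The table holds 1 estimated fragment count and 1 variance per gene for each of 2 conditions, named q1 and q2. Neither name matches a label, so all values are given by column, no direction with respect to ACKR3 is stated, and the spread between mice cannot be seen. With 1 value per condition there is no test and no p-value. A value after ± is an SD taken from the deposited variances, which the file ties neither to 1 library nor to the mean of a condition, and log2 ratios are q2 over q1 with 1 fragment added to each count. The column totals were 16877559 and 16653774 fragments. A minimum of 100 fragments in at least 1 column left 9582 genes, whose median log2 ratio was 0.0005. Ackr3 itself had 1030 ± 100.1 fragments in q1 and 149 ± 23.7 in q2. Markers of MZBs were abundant in both columns, with Cr2, encoding CD21, at 81167 and 70851 fragments and the lipid-presenting molecule Cd1d1 at 5917 and 3468.

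Of the 4 immature B cell markers, Cd93 and Vpreb3 were higher in q2, Cd24a was level between the columns, and Sox4 was too scarce for its difference to be resolved. Both Cd93 and Vpreb3 were at least 2-fold higher in q2, a size reached by 1.84% of the 9582 genes in that direction and by 0.438% toward q1. Large ratios were more frequent among scarce genes: of 2725 genes whose higher column had 100 to 400 fragments, the range that holds both, 4.66% were at least 2-fold higher in q2. Both also lay more than 2 SD from equal counts, which together with the 2-fold size held for 1.77% of the 9582 genes. Cd24a and Vpreb3 exceeded 100 fragments in both columns and Sox4 in neither. Cd93 passed this minimum through q2 alone, so a scarce gene like it could enter the comparison only by differing, and the count of 2 supports nothing about the 4 genes as a group.

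**Figure D1:**
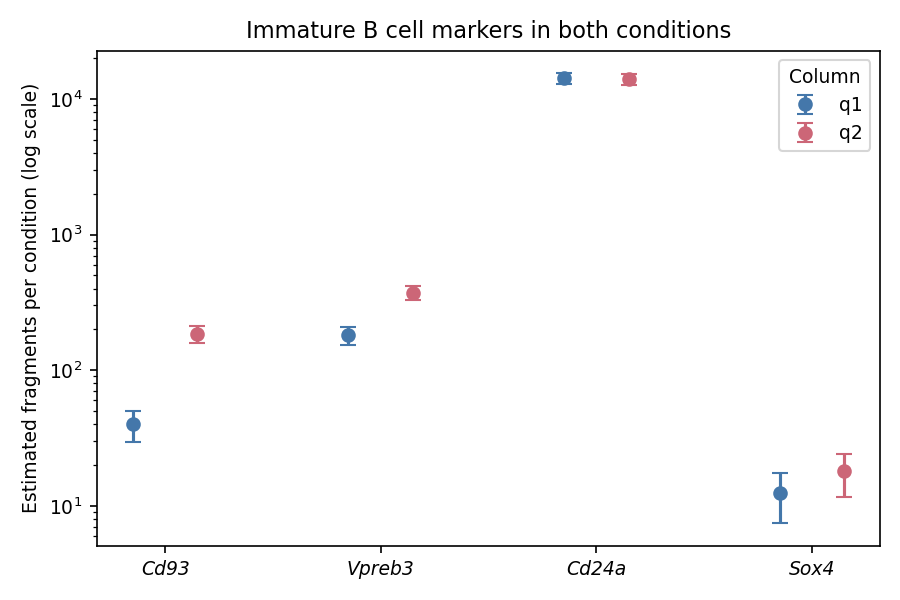
Estimated fragments (log axis) of the 4 marker genes in q1 (blue) and q2 (red), with bars of 1 SD from the deposited variances. Cd93 and Vpreb3 lie higher in q2 with bars that do not overlap, whereas the bars of Cd24a and of Sox4 overlap between the columns.

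Cd93 encodes a C-type lectin-like transmembrane glycoprotein, the antigen of the AA4.1 antibody that defines transitional B cells in the mouse spleen. The gene lies on chromosome 2 (148436640 to 148443563, minus strand, GRCm38) and has 1 annotated transcript of 2 exons and 6677 bases. It had 39.9 ± 10.2 fragments in q1 and 185.7 ± 27.4 in q2. The q2 value was the higher by 145.7 fragments, and the ranges of 1 SD did not overlap. The log2 ratio was 2.19 ± 0.42, a 4.65-fold difference with an exact (Clopper-Pearson) 95% counting interval of 3.29 to 6.72, which covers counting error only and treats estimated fragments as counts. Among the 9582 genes 26 had a larger log2 ratio toward q2. CD93 is also a marker of endothelial cells, is found on monocytes, and is kept by long-lived plasma cells, so the values of those markers are given further on.

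Vpreb3 encodes a small immunoglobulin-like protein of the endoplasmic reticulum that associates with newly made heavy chains in precursor B cells. It lies on chromosome 10 (75943057 to 75949657, plus strand, GRCm38), where M21 lists 2 transcripts, the longer of 729 bases. Vpreb3 had 181 ± 26.9 fragments in q1 and 372 ± 44.5 in q2. Again the q2 value was the higher and the ranges of 1 SD were separate. The log2 ratio was 1.04 ± 0.27, a 2.06-fold difference with a counting interval of 1.72 to 2.47, so that the 2-fold size lies inside the interval. A larger log2 ratio toward q2 was found for 167 of the 9582 genes. In GENCODE M21, the annotation used for positions, the processed pseudogene Gm16221 lies on the other strand within the gene and is not listed in the table. The nearest listed genes did not share the direction beyond error: Gm5134, 4857 bases away on the same strand, had 188 and 154 fragments (log2 ratio -0.29 ± 0.31), and Gm867, on the other side, had 1.13 and 1.60 fragments.

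Of the 4 genes, 2 matched an entry among the RefSeq promoters (GRCm38.p6), Vpreb3 and Sox4. The 250 bases before the start of Vpreb3 are shown because it is the only one of the markers at least 2-fold higher in q2 that has a promoter entry. They lie at chr10:75948050-75948299 on the plus strand, inside the annotated gene but in no annotated exon of it, and the capitals mark a match to the octamer, the element bound by OCT factors in immunoglobulin promoters.

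Vpreb3: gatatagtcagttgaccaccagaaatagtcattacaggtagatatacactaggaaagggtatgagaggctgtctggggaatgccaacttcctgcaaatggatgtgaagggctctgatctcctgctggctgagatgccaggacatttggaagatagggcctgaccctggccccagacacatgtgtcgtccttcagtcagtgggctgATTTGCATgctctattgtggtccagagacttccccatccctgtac

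The octamer was searched as ATGCAAAT on both strands, and the match stands as ATTTGCAT at bases -45 to -38 from the start. Windows of 300 bases, from 250 before to 50 after the start, held such a match for 1.74% of 32851 promoters (570 of them). The window of Sox4 held none. Neither gene's window held CAGGTG, the E-box of E proteins (20.2% of all promoters), CCCNNGGG, a core of the EBF1 motif (13.7%), ACAAAG, a motif of SOX and TCF factors (18.7%), or TGTTTAC, a motif of FOXO factors (3.65%). A match is a description of the letters and not evidence that a factor binds.

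Cd24a encodes the heat stable antigen, a short sialoglycoprotein held in the membrane by a glycolipid anchor, which is high on immature and transitional B cells. The gene lies on chromosome 10 (43578284 to 43584265, plus strand, GRCm38). Cd24a had 14186 ± 1306 fragments in q1 and 14022 ± 1290 in q2. The difference, q2 minus q1, was -163 fragments, far less than either SD. The log2 ratio was -0.02 ± 0.19, and with the columns scaled to equal totals it was 0.0025. Only 136 of the 9582 genes had more fragments than Cd24a in q1. The counting interval of the fold was 0.966 to 1.012, but the deposited SD of about 9.2% in each column is wider than counting error, so differences within the SD of 0.19 on the log2 scale were not resolved. Of the 50-base words in its annotated transcripts 2.75% also occur in transcripts of another gene, in each case Gm6212, which is not listed in the table.

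Sox4 encodes a transcription factor with an HMG box that early B cell precursors need. It lies on chromosome 13 (28948919 to 28953713, minus strand, GRCm38) and is a gene of 1 exon. Sox4 had 12.4 ± 5.0 fragments in q1 and 17.9 ± 6.29 in q2. The ranges of 1 SD overlap. The log2 ratio of 0.49 ± 0.72 and the counting interval of 0.660 to 3.24 for the fold both include equal counts as well as a difference of over 2-fold toward q2. The non-coding gene Gm26735 overlaps Sox4 on the other strand and shares 54.1% of its 50-base words, and whether reads were counted by strand is not given in the sources used here.

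**Figure D2:**
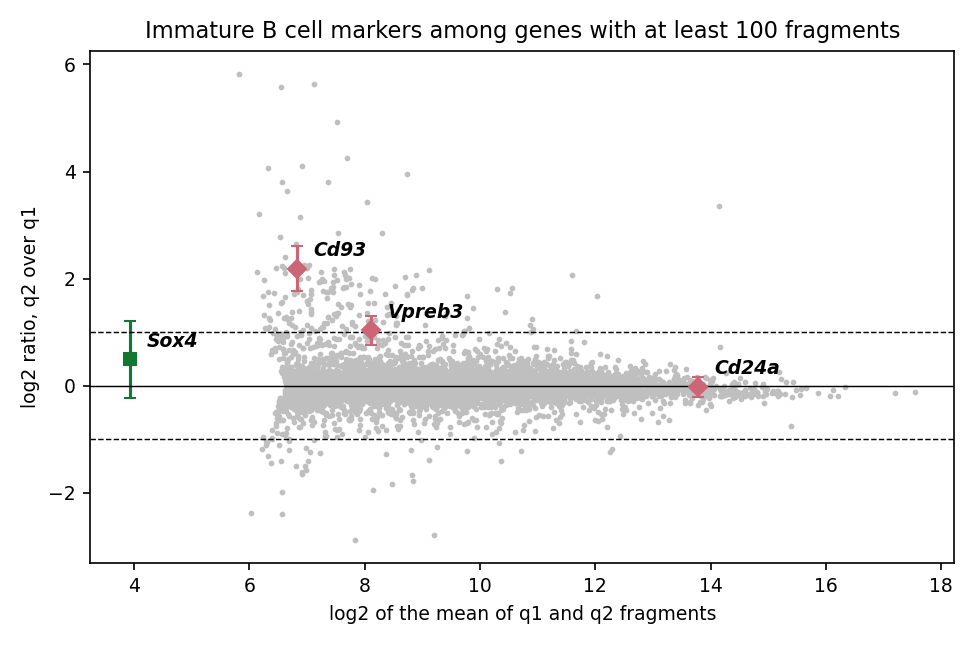
Log2 ratio of q2 over q1 against the log2 mean of the columns for all 9582 genes past the minimum (grey), with Cd93, Vpreb3 and Cd24a as red diamonds, Sox4 (below the minimum) as a green square, bars of 1 SD and dashed lines at 2-fold. Cd93 stands at 2.19, Vpreb3 on the 2-fold line at 1.04 and Cd24a at -0.02.

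The genes differed from each other in level by orders of magnitude. Divided by the length of the longest annotated transcript, Cd24a had the highest level in q1, at 7812 ± 719 fragments per kilobase, followed by Vpreb3 at 248 ± 37.0, Cd93 at 5.98 ± 1.53 and Sox4 at 2.59 ± 1.04. In q2 the order was the same, with 7722 ± 710 for Cd24a, 510.4 ± 61.1 for Vpreb3, 27.8 ± 4.11 for Cd93 and 3.74 ± 1.31 for Sox4. Cd93 and Sox4 were the closest neighbours in q1 and stood further apart in q2. The Cd24a level depends on the transcript used and would be 24714 and 24429 with the shortest of its 3 annotated transcripts, which leaves its place in the order as it is.

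The difference between columns was not of the same size for the 4 genes. The log2 ratio of Cd93 exceeded that of Vpreb3 by 1.15 ± 0.50 and that of Cd24a by 2.21 ± 0.46. That of Vpreb3 exceeded that of Cd24a by 1.05 ± 0.33. The log2 ratio of Cd93 also exceeded that of Sox4, by 1.70 ± 0.83. Sox4 was not separated from the other two genes: Vpreb3 minus Sox4 was 0.54 ± 0.77, and Cd24a minus Sox4 was -0.51 ± 0.74. In bulk RNA a change in the number of cells that express a gene and a change in RNA per cell cannot be told apart, which holds for all values here.

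Vpreb3 was listed with the genes of the surrogate light chain and of recombination, which are the most restricted to precursor B cells. Those other genes were at or near 0. Precursor B cells use these proteins to assemble and test a receptor. Of the 12 genes listed for transitional and immature B cells, 7 stayed below 20 fragments in both columns, Sox4 among them. Vpreb1 had 1.40 and 1.97 fragments, Rag1 had 0.24 and 0.92, and Dntt, the enzyme that adds untemplated bases at the joints, had 0.31 and 0.68. Igll1, encoding lambda5, had 0 and 0.21, and Vpreb2 and Rag2 had 0 in both. Without Vpreb3 the 6 other genes of that list gave 1.95 and 3.78 fragments together. Vpreb3 was thus the only gene of this list, of 7, with at least 20 fragments, and it supplied nearly all of the list's 183 and 376 fragments.

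The remaining transitional and immature genes above 20 fragments had smaller ratios. Myb, a transcription factor of precursor cells, had 151 and 209 fragments, at 0.46 ± 0.31. Il7r, encoding the interleukin 7 receptor of precursor B cells, had 39.4 and 62.5 fragments, at 0.65 ± 0.48. Both values were toward q2, but the ratio of each was under 2 SD. Of this list Myb was the 1 gene besides Cd93, Vpreb3 and Cd24a with at least 100 fragments, so a median over the list would restate their values. T cell genes, which can accompany Il7r, also leaned toward q2, with 10 of 11 that reached 20 fragments higher there. Of all 9582 genes past the minimum 4806 were higher in q2. On the T cell list only Cd28, at 2.40 ± 0.46, lay more than 2 SD from equal counts, and a part of T cells in the Il7r values was not tested.

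Surface and signalling genes of early B cells did not move in 1 direction. Among the 10 that passed the minimum, 5 leaned to q2 and 5 to q1 and the median was 0.0062. After Cd93 the largest ratio was that of Spn, encoding CD43, which is found on precursor B cells, B-1 cells and plasma cells, with 124 and 421 fragments, at 1.76 ± 0.30. Flt3, a cytokine receptor of early progenitors and dendritic cells, had 81.0 and 156 fragments, at 0.94 ± 0.36. Toward q1 stood Bst1, the surface enzyme BP-3 of precursor B cells, with 144 and 62.4 fragments, at -1.19 ± 0.39. Genes of the receptor that mature and immature B cells share, and of its signalling, were within 1 SD of equal. Cd79a stood at -0.02 ± 0.22, Cd79b at -0.15 ± 0.21 and the kinase Syk at 0.03 ± 0.20. Kit, the stem cell factor receptor, had 2.94 and 7.49 fragments, and Arpp21 had 0 and 2.07.

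Transcription factors that establish the B lineage were level as a list, while a few differed. Among 17 regulators that passed the minimum, 9 leaned to q2 and 8 to q1 and the median was 0.0091. The factors that set up the early B cell programme were near equal, with Ebf1 at -0.01 ± 0.18, Pax5 at -0.11 ± 0.18, Tcf3 at -0.01 ± 0.18 and Foxo1 at 0.19 ± 0.18. The member at least 2-fold apart was Bach2, which holds back plasma cell differentiation, with 772 and 1995 fragments and a log2 ratio of 1.37 ± 0.20. Id3, an inhibitor of E proteins, had 286 and 426 fragments, at 0.57 ± 0.25. Lef1, a factor of precursor B cells and T cells, was below the minimum with 25.5 and 46.1 fragments, at 0.83 ± 0.54. Irf4, toward q1, stood at -0.28 ± 0.18.

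**Figure D3:**
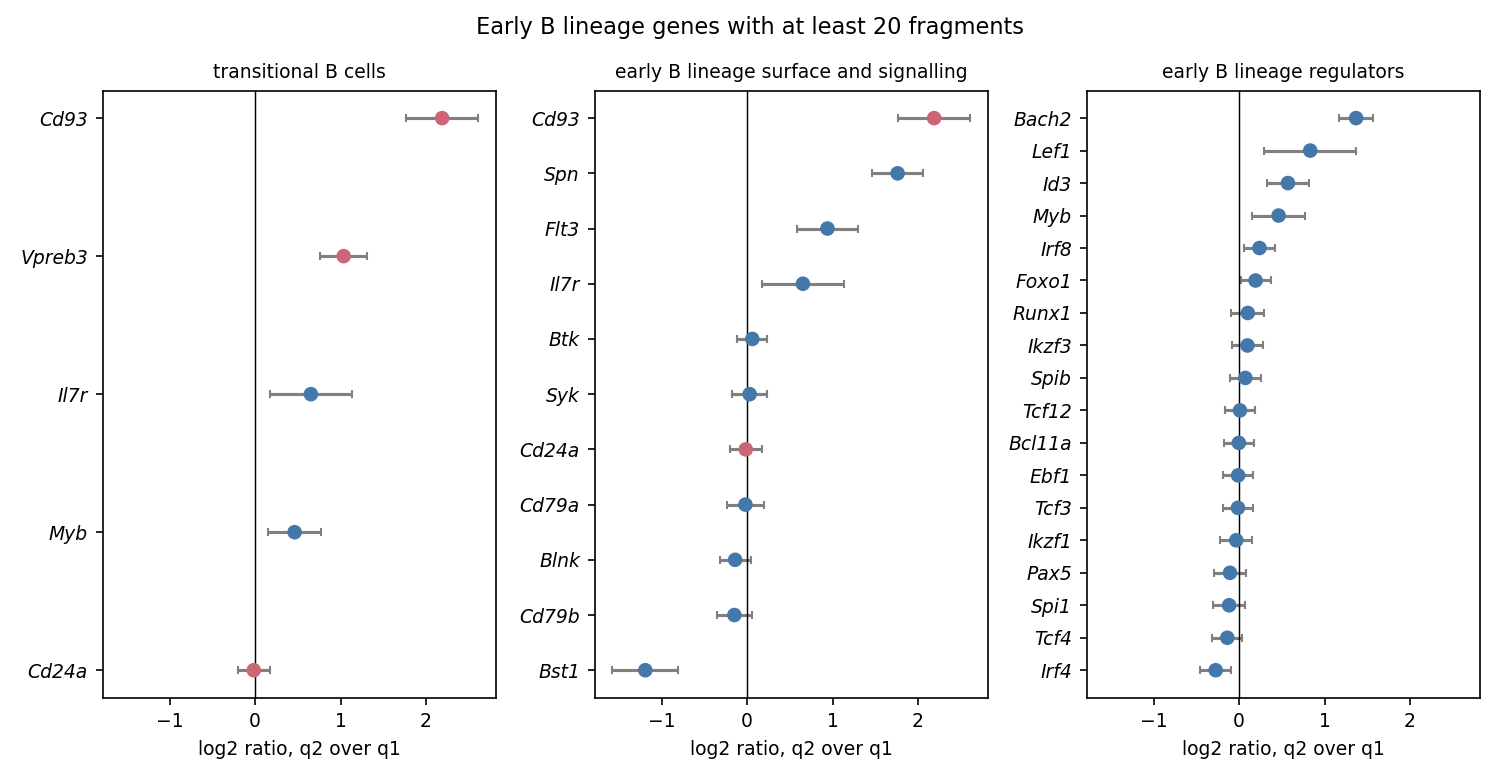
Log2 ratios of q2 over q1 with bars of 1 SD for genes with at least 20 fragments in the lists of transitional B cells, early B lineage surface and signalling genes, and early B lineage regulators, with Cd93, Vpreb3 and Cd24a in red. Cd93 and Spn lie far to the right and Bst1 to the left, while Ebf1, Pax5 and Tcf3 lie on 0.

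Relatives and partners of the 4 proteins were then described. CD93 belongs to a small family of lectin-like membrane proteins with thrombomodulin, endosialin and CLEC14A. Thbd, encoding thrombomodulin, went from 6.0 ± 3.16 in q1 to 50.2 ± 12.0 fragments in q2. Its log2 ratio was 2.87 ± 0.73, and its fold of 8.37 had a counting interval of 3.59 to 23.9, though it stayed below 100 fragments. Cd248, encoding endosialin, had 0 in both, Clec14a had 0 and 0.26 and the ligand Mmrn2 had 2.03 and 1.09. Of the proteins reported to bind the CD93 tail, Gipc1 stood at -0.16 ± 0.24 and moesin, encoded by Msn, at 0.16 ± 0.19.

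In the SOX family 12 of 14 genes stayed below 20 fragments, and 4 of these had 0 in both columns, among them Sox11, a close relative of Sox4. Sox12, the remaining relative of Sox4 in the same subgroup, had 28.4 and 37.6 fragments, at 0.39 ± 0.55. Sox5, a factor found in memory and age-associated B cells, went from 25.2 ± 7.71 in q1 to 75.8 ± 15.3 fragments in q2, at 1.55 ± 0.51, and had the most fragments of the family in q2. For CD24, the inhibitory lectin Siglec-G that binds it was abundant, with Siglecg at 16234 and 13667 fragments, at -0.25 ± 0.19. The kinases Lyn and Fyn stood at -0.05 ± 0.18 and -0.02 ± 0.19. L1cam, an adhesion molecule reported to bind CD24, had 59.3 and 117 fragments, at 0.97 ± 0.40. Among the 7 genes of this list that passed the minimum, 5 leaned to q1 and 2 to q2 and the median was -0.02.

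Markers of other cells and states that can carry Cd93 or Vpreb3 are given beside these results, and their part in them was not tested. Plasma cell genes were higher in q2 for 8 of 9 members with at least 100 fragments, 7 of them by at least 2-fold. Irf4 was the exception, toward q1 at -0.28 ± 0.18, and Prdm1 was higher in q2 by less than 2-fold, at 0.25 ± 0.24. The summed levels of the list were 18532 and 55508 fragments. Igj, the immunoglobulin joining chain, gave 3234 and 33006 of these, and without it the sums were 15298 and 22502. Sdc1, encoding CD138, had 43.9 and 484 fragments, at 3.43 ± 0.40, and Tnfrsf17, encoding the survival receptor BCMA, had 4.65 and 62.2 fragments, at 3.48 ± 0.83. Each of the 10 germinal center genes leaned to q2, 8 past 2-fold, and their sums were 959 and 3507 fragments. Nuggc, a nuclear GTPase of germinal center cells, had 10.7 and 356. Like Cd93 it passed the minimum through q2 alone, as did most other germinal center genes and several genes of the cycling list. On the plasma cell list the same held for Sdc1, Slpi and Ly6c2. Each of the 12 genes of cycling cells leaned to q2 as well, 10 past 2-fold, and their sums were 3669 and 11573. None of the genes on these 3 lists was at 0 in both columns. For comparison, 4806 of all 9582 genes past the minimum were higher in q2, and 1.84% were at least 2-fold higher there.

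Endothelial markers were mostly scarce, and macrophage and monocyte markers differed in both directions. Of 12 endothelial genes 8 stayed below 20 fragments, and 3 of the remaining 4 were higher in q1. The sums were 3567 and 3638 fragments, of which Pecam1, which B cells also express, gave 3415 and 3537. Cdh5, encoding VE-cadherin, had 79.9 and 61.5 fragments, at -0.37 ± 0.42, Plvap had 24.3 and 16.5, and Kdr had 4.74 and 1.08. Of 10 macrophage and monocyte genes with at least 20 fragments 8 were higher in q1, with sums of 1303 and 939 for all 12 and Csf1r at -1.24 ± 0.37. The exceptions on the macrophage and monocyte list were Emr1, which encodes F4/80, at 0.76 ± 0.37, and Ly6c2, a gene of monocytes and plasma cells, at 1.79 ± 0.38 with 59.4 and 208 fragments. Thbd, described above, is also a gene of endothelial cells and monocytes and was higher in q2. Erythroid cells, which carry much CD24, were hardly represented, with sums of 83.7 and 78.9 fragments over 10 genes. Neutrophil genes summed to 25.3 and 39.5 fragments, platelet genes to 103.2 and 102.5, NK cell genes to 313 and 265, dendritic cell genes to 232 and 389 and T cell genes to 1181 and 1524.

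**Figure D4:**
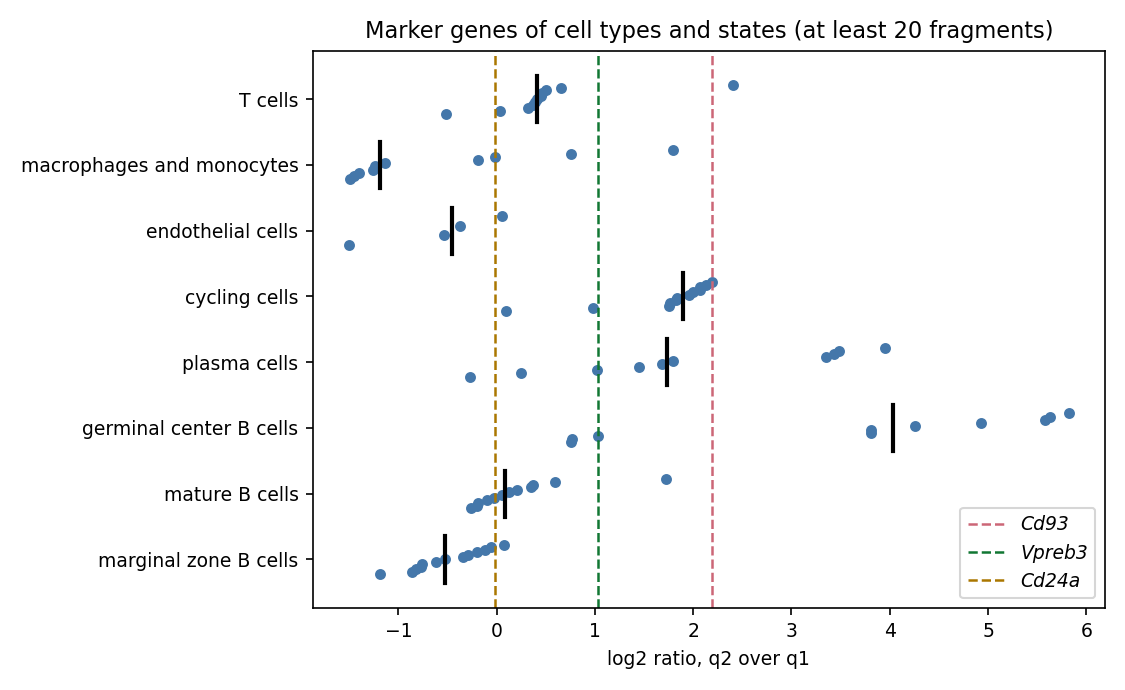
Log2 ratios of q2 over q1 for marker genes with at least 20 fragments (points, 1 row per list, black bar at the median), with dashed lines at the ratios of Cd93, Vpreb3 and Cd24a. The Cd93 line at 2.19 lies to the right of every plotted endothelial and macrophage gene and among those of plasma cells and germinal center cells. Thbd, also a gene of endothelial cells and monocytes, stood further right at 2.87 but was on neither list and is not plotted. It also lies at the upper end of the cycling genes (Ube2c at 2.19) and to the left of Cd28 (2.40) on the T cell list.

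Genes of mature B cells were mostly close between the columns. Among 12 that passed the minimum, 7 leaned to q2 and 5 to q1 and the median was 0.09. The largest ratio was that of Fcer2a, encoding CD23, which transitional cells gain as they mature, with 683 and 2265 fragments, at 1.73 ± 0.20. Cd55, a complement regulator, stood at 0.60 ± 0.18 and Ccr7, the receptor for T zone chemokines, at 0.37 ± 0.20. The pan-B cell gene Ms4a1, encoding CD20, was within 1 SD of equal, at -0.10 ± 0.23. Marginal zone genes leaned the other way from Cd93 and Vpreb3, with 12 of 13 higher in q1, against 4776 of all 9582 genes. Some of the 12 lay within 1 SD of equal, among them Notch2 at -0.05 ± 0.19, Cd36 at -0.12 ± 0.18 and Cr2 at -0.20 ± 0.30. This list too was chosen with earlier results of these data known, so the count is a description and no independent support. On this list 1 gene was at least 2-fold higher in q1, against 0.438% of all genes, and the median was -0.52. The largest ratios were those of the semaphorin receptor Plxnd1, at -1.18 ± 0.18, the tetraspanin Cd9, at -0.86 ± 0.19, Asb2, at -0.82 ± 0.18, and Cd1d1, at -0.77 ± 0.18.

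The genes closest to each marker by distance in the log2 counts of both columns were also noted, 3 for each and over only 2 points. Nearest to Cd93 were the kinetochore gene Nuf2 (distance 0.17), with 42.3 and 206 fragments, the galectin Lgals1, with 46.2 and 188, and Ube2c, a ubiquitin-conjugating enzyme of mitosis, with 45.2 and 210. Nearest to Vpreb3 were Mad2l1 (distance 0.033), with 181 and 364 fragments, Aurkb, with 187 and 370, and Brca1, with 192 and 353; the first of these acts in the spindle checkpoint, Aurkb is a mitotic kinase and Brca1 repairs DNA breaks. Cd24a lay near Birc6, Ddx3x and Arhgap30, each within 0.054 of it, and Sox4 near E530011L22Rik, A430088P11Rik and Gm2011, of which the first had an SD of 3.17 on the log2 ratio. Of the 26 genes with a larger ratio than Cd93, 7 were on the germinal center list, 3 on the plasma cell list and 1 on the cycling list. Of the 167 above Vpreb3 these numbers were 7, 6 and 10.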

How the data were processed

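Per the labels' protocols, total RNA from Trizol extraction went into an Illumina TruSeq RNA kit. Per the submitters' processing notes, cutadapt 1.8.1, TopHat2 2.0.14 and Cuffdiff 2.2.1 were used with mm10. The annotation and settings are not given there. The deposited file is Cuffdiff's table of estimated counts per condition, with their variances, per the file headers. No gene had variance from isoform assignment. Since the table has 1 value per condition, no test was run. Log2 ratios were computed with a pseudocount of 1, with their SD to first order from the deposited variances. Genes were compared from 100 fragments in the higher column upward, with a 2-fold size rule.

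Named genes were the 4 markers, Ackr3, Cr2 and Cd1d1, up to 4 genes per list with the largest absolute ratio, listed genes of the surrogate light chain, SOX and CD93 lists, and the 3 nearest genes per marker; others, including Ebf1, Pax5, Tcf3, Foxo1, Cd79a, Syk, Kit, Il7r, Lef1, Ms4a1, Lyn, Fyn, Tnfrsf17, Cdh5, Plvap, Kdr, Csf1r and Emr1, were chosen after their values were seen. Some genes the rule names are not reported here. The markers and lists were chosen with earlier results of these data known. Positions and lengths came from GENCODE M21 (GRCm38, named mm10 in the notes). Python 3.11.15, numpy 2.4.6, pandas 2.3.3 and scipy 1.17.1 were used. The computation of the ratios was run on simulated counts drawn with the deposited variances, so that run was no check of the SDs themselves.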

Additional observations from a re-analysis of the deposited data

How the results depend on the processing

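No paired analysis was possible because q1 and q2 each pool their libraries and carry no replicate numbers, nor could single libraries be removed. Across pseudocounts of 0 and 10, equal totals and scaling by the median ratio, all 16 recomputed marker ratios stayed inside their counting intervals: Cd93 between 1.97 and 2.22, Vpreb3 between 1.001 and 1.06, Cd24a between -0.017 and 0.0025 and Sox4 between 0.31 and 0.53. Vpreb3 lay close to the 2-fold limit throughout. The values with a pseudocount of 0 lie inside by construction. The factor of the median scaling and the ratio of the totals, 0.987, were so close to 1 that they could not move a ratio out of its interval. None of these settings was therefore a check of the ratios, which leaves the pseudocount of 10. The numbers of genes past 2-fold toward q2 and q1 were 176 and 42. They became 346 and 102 of 11163 genes at a minimum of 20 fragments, and 39 and 14 of 6184 at 500. These counts changed by more than the number of genes compared, so the share past 2-fold depends on the minimum. A 1.5-fold rule gave 325 and 151 of 9582. With the minimum set on the mean of both columns, an alternative chosen after seeing the data, the numbers past 2-fold were 145 and 30. Cd93, with a mean of 113, still passed. The median of the transitional list, 0.75 over 4 genes of which 3 are the markers themselves, was -0.017 with a minimum of 500, where Cd24a was the 1 gene left. The median of the regulators lay between -0.0037, with a minimum of 500, and 0.041, with a minimum of 20, so it has no stable sign.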
